A study of Mus musculus with 12 samples.

Results

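The potassium channel genes described here were the protein-coding genes of the deposited expression table whose symbol begins with Kcn, a prefix that covers the pore-forming subunits of potassium channels and several of their auxiliary subunits. Apart from 1 gene with this prefix, which the choice of members leaves out of every count, class and sum, these were 93 members of the 55862 genes listed. They were sorted by symbol into 11 classes of 2 to 17 genes. RNA had been measured in 12 mouse samples that fell into 4 groups of 3. ASTs were primary cortical astrocytes of newborn C57BL/6 mice, grown as a monolayer with serum and taken at day 0 of sphere culture. A-iSCs were the same kind of astrocytes after 5 days as floating spheres on agarose, which the study calls AST-derived stem cells. P56-NPC samples were suspensions dissociated from the subependymal zone of adult mice at postnatal day 56, and P0-NPC samples were suspensions from the hippocampus at postnatal day 0, both C57BL/6J by the study's methods and both used as positive controls. No transgene was introduced into any group by the study's methods. The 2 suspensions came from dissociated tissue and held markers of several cell types, and they were of 2 regions as well as 2 ages, so region and age cannot be told apart in them, and spheres and monolayer differed in time in culture as well as in shape.

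Potassium channels let potassium ions leave the cell along their gradient and so set the resting potential, end action potentials and limit firing. Voltage-gated channels (Kv) open on depolarization, calcium- and sodium-activated channels (KCa and KNa) open when those ions rise inside the cell, and inward rectifiers (Kir) and 2-pore-domain channels (K2P) carry the resting conductance. In the brain, astrocytes are known for a large resting potassium conductance that buffers the potassium released by neurons, while most Kv genes are known from neurons. Silent Kv subunits form no channel alone and modify Kv2 channels, and auxiliary subunits alter the gating or the trafficking of the pore.

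The libraries held between 17077780 and 24452419 fragments each, and the floor of detection of 3 fragments stood for 0.103 to 0.187 FPKM in a gene of 1 kb. FPKM counts fragments per length of gene and per size of library, here also scaled between samples by the authors. Nothing in the labels says that the 3 samples of a group came from separate animals or cultures, so the p-values measure the spread between these samples, which may be technical. A-iSC replicate 3 and AST replicate 2 stood farthest from their group. The P56-NPC samples stood apart, with 16.5% to 17.6% of fragments from mitochondrial genes against 2.94% to 7.03% in the others, and the library size behind their deposited values was 0.744 to 0.779 of their fragments against 0.941 to 1.22. The part of this in the P56-NPC comparisons was not tested, beyond the other scalings. In these bulk samples, fewer cells of a type and less RNA per cell cannot be told apart. All 6 astrocyte markers (Gfap, Aqp4, Aldh1l1, Slc1a2, Slc1a3 and Gja1) reached 1 FPKM in all 4 groups, summing to 126 to 146 FPKM in ASTs, 900 to 1974 in A-iSCs, 1252 to 1335 in P56-NPC and 151 to 208 in P0-NPC. The 5 oligodendrocyte markers summed to 8430 to 9633 FPKM in P56-NPC, 54.3 to 75.8 in A-iSCs, 17.6 to 19.4 in ASTs and 15.2 to 18.2 in P0-NPC. The 6 neuron markers summed to 900 to 1137 FPKM in P0-NPC, 245 to 294 in P56-NPC, 104 to 147 in ASTs and 64.8 to 87.4 in A-iSCs, and the 5 microglia markers to 193 to 246 in A-iSCs and 231 to 240 in P56-NPC against at most 31.2 in ASTs and P0-NPC. Of 5 progenitor genes listed after the data had been seen (Nes, Sox2, Pax6, Eomes and Dcx), 3 reached 1 FPKM in ASTs, 4 in A-iSCs and P56-NPC and 5 in P0-NPC. Nes was at 3.76 ± 0.246 FPKM in P56-NPC against 196 ± 13.4 in ASTs, whereas Dcx was at 3.34 ± 0.398 against 0.0833 ± 0.0245 (mean ± SD, n = 3). Of the 4 progenitor genes tested between these groups, 1 was higher in P56-NPC, 2 were lower and 1 was not called.

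Far more potassium channel genes were measured at appreciable levels in the brain suspensions than in the cultures. A mean of at least 1 FPKM was reached by 50 of the 93 members in P56-NPC, by 46 in P0-NPC, by 22 in A-iSCs and by 18 in ASTs, and within a group single samples differed little, with 17 to 19 such members in single AST samples and 19 to 24 in single A-iSC samples. In all, 63 members reached this level in at least 1 group, 9 did so in every group, 30 in none, and 3 had no fragment in any sample. Among the 63, the highest group mean was in P56-NPC for 29, in P0-NPC for 23, in ASTs for 9 and in A-iSCs for 2. Summed over all members, the message came to 384 to 435 FPKM in P56-NPC, 209 to 220 in P0-NPC, 116 to 133 in ASTs and 97.8 to 125 in A-iSCs, so that the ranges of ASTs and A-iSCs overlapped while the suspensions lay above both.

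**Figure D1:**
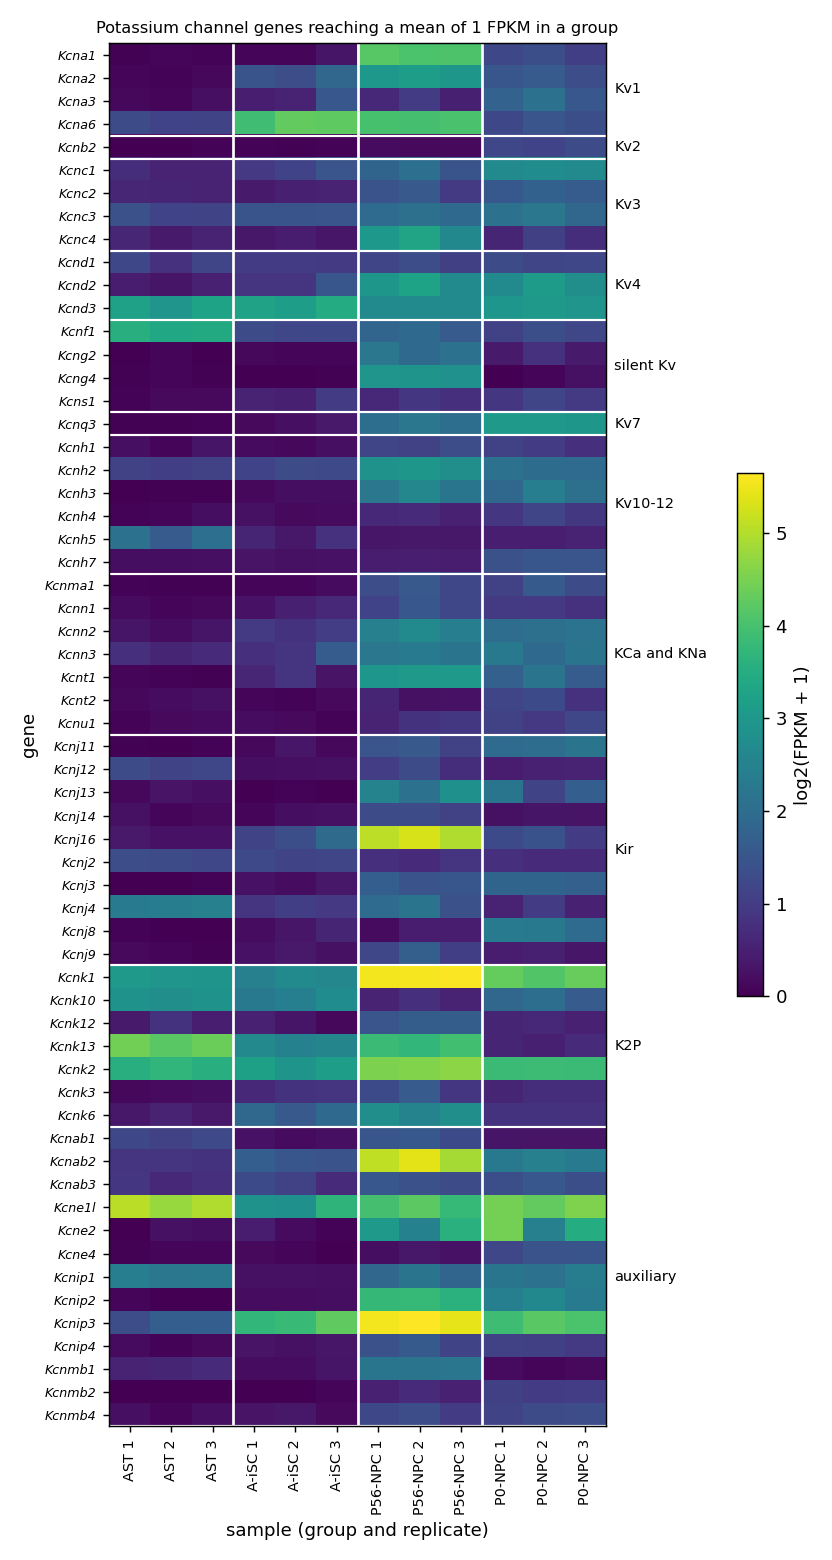
Log2(FPKM + 1) of 60 of the 63 potassium channel genes that reached a mean of 1 FPKM in a group (rows, by class) in the 12 samples (columns, by group and replicate); brighter cells are higher values. The P56-NPC and P0-NPC columns hold most of the bright cells, and the A-iSC columns differ from the AST columns in a few rows, among them Kcna6, Kcnip3, Kcnf1, Kcnip1 and Kcnk13.

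The leading genes differed between groups. In ASTs the highest mean was that of Kcne1l, an auxiliary subunit of the KCNE family, at 29.7 ± 2.99 FPKM (SD, n = 3), which was 23.6% of the summed message, followed by the K2P gene Kcnk13 at 19.3 ± 1.81. In A-iSCs the Kv1 gene Kcna6 led with 16.8 ± 2.44 FPKM, or 15.6% of the sum, followed by Kcnip3, which encodes a calcium-binding partner of Kv4 channels also known as a transcriptional repressor, at 14.5 ± 3.15. P56-NPC was led by Kcnk1, a K2P channel found in astrocytes and neurons, at 46.9 ± 1.12 FPKM and by Kcnip3 at 45.5 ± 3.52. P0-NPC was led by Kcne1l at 20.7 ± 2.04 FPKM and Kcnk1 at 18.2 ± 1.61. These are levels per gene length and can be set side by side between genes.

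The start regions of 4 genes that the comparison of spheres and monolayer turns on are shown, as the first 2 genes in each direction with a single start window in RefSeq. Each window of 300 bases spans the start on GRCm38.p6, mostly upstream of it, and is written 5′ to 3′ on the gene's strand, in lower case, with the motif GGGCGG or its reverse complement CCGCCC, the core of a GC box, in capitals. Kcna6 and Kcna2 rose in the spheres, whereas Kcnf1 and Kcne1l fell.

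Kcna6 promoter (chr6:126740625-126740924, minus strand): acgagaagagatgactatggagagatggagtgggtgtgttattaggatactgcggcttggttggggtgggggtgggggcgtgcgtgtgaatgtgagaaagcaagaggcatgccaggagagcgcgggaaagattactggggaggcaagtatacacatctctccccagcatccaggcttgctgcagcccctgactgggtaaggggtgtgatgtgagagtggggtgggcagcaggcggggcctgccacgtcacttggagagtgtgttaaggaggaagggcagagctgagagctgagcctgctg

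Kcna2 promoter (chr3:107101317-107101616, plus strand): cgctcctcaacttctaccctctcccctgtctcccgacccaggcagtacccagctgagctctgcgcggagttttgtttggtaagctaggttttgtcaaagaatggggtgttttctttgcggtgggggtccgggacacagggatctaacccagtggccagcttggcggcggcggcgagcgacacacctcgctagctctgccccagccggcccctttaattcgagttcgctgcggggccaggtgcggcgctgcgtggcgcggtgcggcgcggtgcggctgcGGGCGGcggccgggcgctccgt

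Kcnf1 promoter (chr12:17176839-17177138, minus strand): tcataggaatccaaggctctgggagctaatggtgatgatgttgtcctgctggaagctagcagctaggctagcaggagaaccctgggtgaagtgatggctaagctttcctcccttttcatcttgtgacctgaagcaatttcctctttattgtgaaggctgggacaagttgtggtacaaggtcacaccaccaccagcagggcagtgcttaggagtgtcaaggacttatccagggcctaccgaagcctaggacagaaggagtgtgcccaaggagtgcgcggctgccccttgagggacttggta

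Kcne1l promoter (chrX:142306149-142306448, minus strand): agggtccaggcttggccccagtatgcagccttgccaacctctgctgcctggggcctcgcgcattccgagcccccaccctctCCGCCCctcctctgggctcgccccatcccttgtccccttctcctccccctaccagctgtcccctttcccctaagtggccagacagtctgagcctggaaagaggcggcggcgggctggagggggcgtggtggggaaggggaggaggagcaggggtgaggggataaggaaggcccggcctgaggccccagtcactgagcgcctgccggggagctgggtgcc

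The motif, searched on both strands, was present in the windows of Kcna2 and Kcne1l and in neither of the other two. It was in 35.7% of all 32851 RefSeq windows and in 47.3% of the 93 windows of the 68 members with an entry, and TATAAA, the TATA box core, was in 13.6% of all windows and 5.38% of member windows. The median content of G and C was 52.7% in all windows and 58% in member windows, and its part in the motif shares was not tested. These shares describe the letters of the windows and are not sites.

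The first comparison asked what 5 days of sphere culture did to the potassium channel message of astrocytes. On the log2(FPKM + 1) scale, Kcna6, Kcnip3, Kcna2, Kcnk6 and Kcnj16 rose the most in A-iSCs, while Kcnf1, Kcnip1, Kcne1l, Kcnk13 and Kcnj4 fell the most. Of the 28 members that could be tested, 10 were higher and 10 lower at an adjusted p under 0.05 (limma over 14087 genes), where 25.2% of all tested genes were called higher and 29.6% lower, so that the shares of members were 35.7% in each direction. Among the 12 members that reached 1 FPKM in both groups, 2 were higher, 5 lower and 5 not called. The other 16 passed the filter through 1 group alone, 10 through A-iSCs and 6 through ASTs, so that a difference toward that group was built in. The median log2 difference of the members was 0.14, against -0.06 over all tested genes. Without A-iSC replicate 3 the counts were 10 higher and 11 lower, and without AST replicate 2 they were 8 and 11. Differences below are on the log2(FPKM + 1) scale, A-iSC minus AST, with the SE from limma, and understate the change of low genes.

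Both Kv1 genes that were tested rose, where 25.2% of all tested genes were called higher. Kcna2 passed the filter through A-iSCs alone, so its direction was built in. Kcna6, which encodes the delayed rectifier subunit Kv1.6, was at 1.47, 1.21 and 1.21 FPKM in the 3 ASTs and 14.1, 18.6 and 17.8 in the 3 A-iSCs. Every sphere sample lay far above every monolayer sample, and the group means differed 12.9-fold, with a log2 difference of 2.95 ± 0.13 (SE, adjusted p = 6.55e-06). The gene lies on the minus strand at chr6:126708329-126740674 (GRCm38), and 39.6% of its exonic bases overlap Gm26673 on the other strand, which was itself at or below 0.036 FPKM in group mean. Kcna2, the Kv1.2 subunit known from axons, was at 0.0501, 0.0414 and 0.0950 FPKM in ASTs and 1.75, 1.53 and 2.66 in A-iSCs, a log2 difference of 1.47 ± 0.16 (SE, adjusted p = 0.00023). In ASTs it rested on 10 to 21 fragments per sample, and in spheres on 421 to 848. Kcna1, whose gene lies 61.9 kb from Kcna6 on chromosome 6, stayed below the level at which it could be tested, with 0.0250, 0.0722 and 0.0338 FPKM in ASTs and 0.0623, 0.0616 and 0.258 in A-iSCs. The remaining members of the class, Kcna3, Kcna4, Kcna5, Kcna7 and Kcna10, had group means under 1 FPKM in both cultures, and A-iSC replicate 3 alone reached 1.90 FPKM for Kcna3.

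Other voltage-gated genes moved in both directions. Kcnf1, a silent subunit that modifies Kv2 channels, was at 10.6, 9.39 and 9.80 FPKM in ASTs and 1.43, 1.28 and 1.32 in A-iSCs. It fell 7.39-fold in group mean, a log2 difference of -2.22 ± 0.10 (SE, adjusted p = 6.8e-06). Kcnh5, a Kv10 subunit, fell from 3.31, 2.05 and 3.20 to 0.489, 0.280 and 0.745 FPKM, a log2 difference of -1.35 ± 0.18 (SE, adjusted p = 0.000686), and its groups did not overlap although AST replicate 2 was the lowest of the monolayer samples. The A-type gene Kcnd3 was at 8.34, 6.66 and 8.72 FPKM in ASTs and 8.59, 7.96 and 10.1 in A-iSCs, overlapping, a log2 difference of 0.15 ± 0.14 (SE, adjusted p = 0.386). Kcnc1 and Kcnd2, a Kv3 and a Kv4 pore gene, were called higher by 0.58 ± 0.16 on the log2 scale (SE, adjusted p = 0.019) and 0.66 ± 0.20 on the log2 scale (SE, adjusted p = 0.0241). Those calls were lost without AST replicate 2, where Kcnc1 had an adjusted p of 0.0571 and Kcnd2 of 0.0741, without AST replicate 3 for Kcnc1 (0.0638) and without AST replicate 1 for Kcnd2 (0.0596). Kcnd2 was at 0.828, 0.841 and 1.87 FPKM in A-iSCs, and without A-iSC replicate 3 it was too low to be tested. Kcnc1 and Kcnd2 passed the filter through A-iSCs alone and Kcnh5 through ASTs alone, so their directions were built in.

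Of 5 K2P genes tested, 3 fell in spheres, 1 rose and 1 was not called, where 29.6% of all tested genes were called lower and 25.2% higher. Kcnk13, a K2P channel also known as THIK-1 and prominent in microglia, was at 20.7, 17.2 and 19.9 FPKM in ASTs and 5.26, 4.55 and 4.97 in A-iSCs. Its values separated fully, with a mean 3.91-fold lower in spheres and a log2 difference of -1.77 ± 0.12 (SE, adjusted p = 2.3e-05), while the summed microglia markers were higher in every A-iSC sample than in any AST sample. What part those cells had in either value was not tested. Kcnk2, the mechanosensitive TREK-1 channel of astrocytes, fell from 10.7, 12.1 and 10.7 to 8.23, 6.53 and 7.80 FPKM, a log2 difference of -0.51 ± 0.12 (SE, adjusted p = 0.00926), and Kcnk1 fell from 7.12, 6.69 and 6.55 to 4.53, 5.53 and 5.07 FPKM, a log2 difference of -0.37 ± 0.11 (SE, adjusted p = 0.024). The Kcnk1 call was lost without AST replicate 1, AST replicate 3 or A-iSC replicate 1, at adjusted p of 0.102, 0.0708 and 0.0839. It was also lost when samples were scaled by library size (adjusted p = 0.228) or by the upper quartile (0.181), and the Kcnk2 call was lost with the upper quartile (0.0598). Kcnk10, the related TREK-2 channel, was at 6.47, 5.89 and 6.41 FPKM in ASTs and 3.86, 4.38 and 5.67 in A-iSCs, a log2 difference of -0.38 ± 0.14 (SE, adjusted p = 0.0532), and became a call without A-iSC replicate 3 (-0.50, adjusted p = 0.00468), with all 4 groups in the model (0.0273) and with limma-voom on fragments (0.0462). Among the 5, Kcnk6 alone rose, having passed the filter through A-iSCs alone, from 0.287, 0.463 and 0.298 to 2.67, 2.0 and 2.80 FPKM, a log2 difference of 1.36 ± 0.13 (SE, adjusted p = 0.000153). Kcnk3, another K2P channel, was too low to be tested, with 0.0900, 0.124 and 0.149 FPKM in ASTs and 0.549, 0.772 and 0.816 in A-iSCs, and Kcnk9 had at most 2 fragments in any monolayer sample but 19 to 43 in the spheres. For both genes every sphere value lay above every monolayer value.

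Of 4 inward rectifiers tested, 2 of the Kir2 subfamily fell, 1 rose and 1 was not called. The 3 called ones passed the filter only through the group where they were high, so their directions were built in. Of all tested genes, 25.2% were called higher and 29.6% lower. Kcnj4, the Kir2.3 subunit, was at 4.02, 4.15 and 4.50 FPKM in ASTs and 0.807, 1.07 and 0.901 in A-iSCs, a log2 difference of -1.44 ± 0.11 (SE, adjusted p = 4.42e-05). Kcnj12, the Kir2.2 subunit, fell from 1.45, 1.22 and 1.29 to 0.162, 0.168 and 0.190 FPKM, a log2 difference of -0.98 ± 0.11 (SE, adjusted p = 0.000256). In both genes the lowest monolayer sample lay above the highest sphere sample. Kcnj2, the Kir2.1 subunit, was at 1.51, 1.44 and 1.29 FPKM in ASTs and 1.38, 1.23 and 1.25 in A-iSCs, a log2 difference of -0.08 ± 0.11 (SE, adjusted p = 0.56), and the sign of this small difference turned positive when samples were scaled by library size or by the upper quartile. Kcnj16, which encodes Kir5.1, a subunit that pairs with other inward rectifiers in glia and kidney, rose from 0.303, 0.213 and 0.205 to 1.24, 1.57 and 2.86 FPKM, a log2 difference of 1.18 ± 0.20 (SE, adjusted p = 0.00234). Its sphere values were spread, with A-iSC replicate 3 highest, and that sample also had the highest summed astrocyte markers of its group (1974 FPKM). Kcnj16 and Kcnj2 lie 38.2 kb apart on chromosome 11.

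Auxiliary subunits gave some of the widest differences. Kcnip3 was at 1.51, 2.23 and 2.22 FPKM in ASTs and 12.3, 13.1 and 18.1 in A-iSCs, a 7.30-fold difference of means, a log2 difference of 2.37 ± 0.18 (SE, adjusted p = 4.08e-05). Its relative Kcnip1, which also encodes a Kv4 partner, went the other way, from 4.37, 3.72 and 3.76 to 0.197, 0.20 and 0.177 FPKM, 20.6-fold lower in mean, a log2 difference of -2.05 ± 0.11 (SE, adjusted p = 1.03e-05). The 2 genes thus exchanged order between monolayer and spheres in all 6 samples. Kcne1l fell from 32.4, 26.5 and 30.3 to 6.50, 6.11 and 11.8 FPKM, a log2 difference of -1.80 ± 0.23 (SE, adjusted p = 0.000551), with A-iSC replicate 3 the least reduced. Of the cytoplasmic beta subunits of Kv1 channels, Kcnab1 fell from 1.32, 1.13 and 1.36 to 0.213, 0.113 and 0.174 FPKM, a log2 difference of -0.96 ± 0.11 (SE, adjusted p = 0.000343), and Kcnab2 rose from 0.838, 0.841 and 0.764 to 2.24, 1.84 and 1.72 FPKM, a log2 difference of 0.69 ± 0.11 (SE, adjusted p = 0.00193). In each case the groups did not overlap. Of all tested genes, 24.7% were called higher and 29% lower without overlap. Kcnip1 and Kcnab1 passed the filter through ASTs alone and Kcnab2 through A-iSCs alone, so their directions were built in. Kcnab3, another of these beta subunits, overlapped and was not called, with a log2 difference of 0.24 ± 0.17 (SE, adjusted p = 0.27). Fibroblast markers (Col1a1, Col1a2, Dcn and Lum) summed to 145 to 195 FPKM in ASTs and 3.63 to 4.78 in A-iSCs, and those of pericytes and smooth muscle (Pdgfrb, Rgs5, Acta2 and Myh11) to 1702 to 2123 and 29.2 to 61.5, and the 2 genes of each list that could be tested were lower in A-iSCs. Acta2 made up most of the last sum, with 1848.1 ± 231 FPKM in ASTs and 41.6 ± 16.6 in A-iSCs (SD, n = 3). The 3 oligodendrocyte markers tested were higher in A-iSCs, and of the 3 oligodendrocyte precursor markers 2 were higher and 1 lower. The part of these cell types in the differences was not tested.

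**Figure D2:**
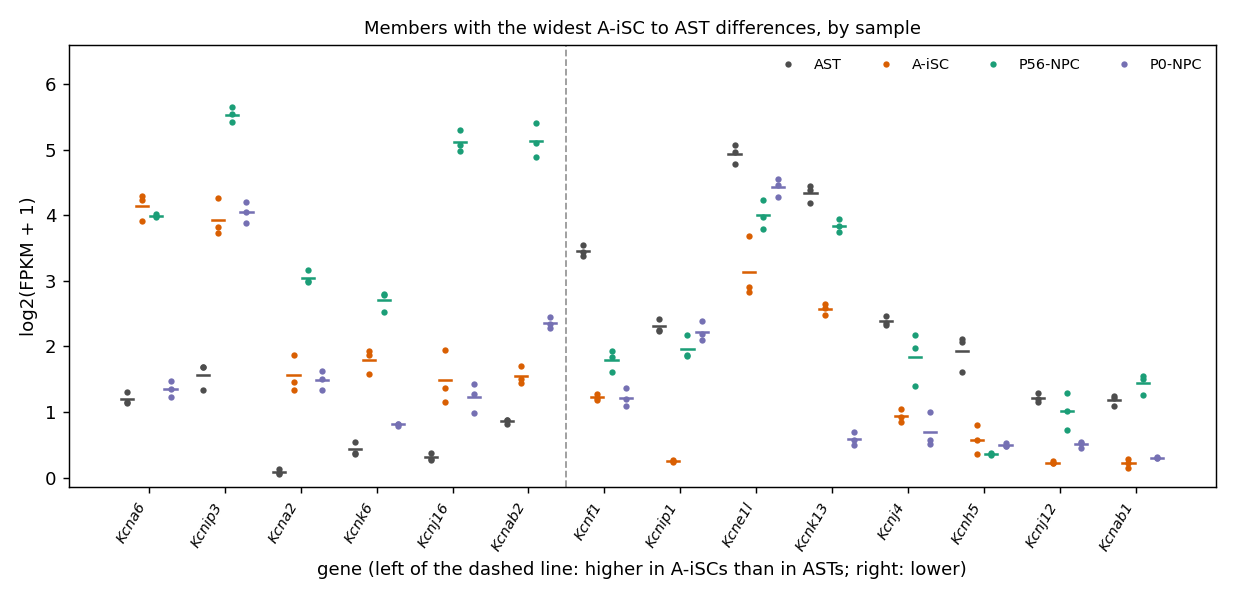
Log2(FPKM + 1) of 6 of the 8 called members furthest up and the 8 furthest down in A-iSCs against ASTs (x axis) in every sample of the 4 groups; points are samples and short lines are group means. For Kcna6 the A-iSC points lie beside those of P56-NPC, whereas for Kcnj16 and Kcnab2 they stay well below them, and for Kcnip1 they lie below all other groups.

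The second question was how the spheres stood against the suspensions used as positive controls. Against P56-NPC, 3 of 52 tested members were higher in A-iSCs and 43 lower, where 30.1% and 30.9% of all tested genes were called. Against P0-NPC, 6 of 49 were higher and 36 lower, beside 31.5% and 33.6% of all genes. Of the members that reached 1 FPKM in both groups compared, 15 of 20 were lower than in P56-NPC and 11 of 19 lower than in P0-NPC, while the many that passed through the suspension alone had to differ in that direction. The median member difference was -1.23 against P56-NPC and -1.01 against P0-NPC, beside 0.03 and -0.02 over all tested genes. Log2 differences here are A-iSC minus suspension.

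Individual members that rose in spheres reached different levels in relation to the suspensions. Kcna6 was at 14.9, 14.7 and 15.2 FPKM in P56-NPC, which the A-iSC values of 14.1 to 18.6 enclosed, a log2 difference of 0.15 ± 0.12 (SE, adjusted p = 0.309). In P0-NPC it was at 1.35, 1.79 and 1.56 FPKM, near the ASTs, and the spheres were higher by 2.79 ± 0.14 on the log2 scale (SE, adjusted p = 2.09e-06). Kcnip3 showed the reverse, since the spheres overlapped P0-NPC (13.8, 17.3 and 15.5 FPKM), a log2 difference of -0.11 ± 0.16 (SE, adjusted p = 0.576), and lay under P56-NPC (45.4, 49.0 and 41.9 FPKM), a log2 difference of -1.60 ± 0.16 (SE, adjusted p = 0.000114). Kcna2 likewise overlapped P0-NPC (1.84, 2.08 and 1.53 FPKM), a log2 difference of 0.07 ± 0.16 (SE, adjusted p = 0.725), and was lower than P56-NPC (7.02, 7.93 and 6.90 FPKM), a log2 difference of -1.49 ± 0.15 (SE, adjusted p = 0.000148). Kcnj16, although higher than in ASTs, was lower than the 32.6, 38.3 and 30.4 FPKM of P56-NPC, a log2 difference of -3.62 ± 0.21 (SE, adjusted p = 9.24e-06). A p that misses the threshold does not show equal levels in any of these pairs.

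The 3 members higher in spheres than in P56-NPC were Kcnk10, Kcnd3 and Kcnj2. Of these, Kcnk10 and Kcnj2 passed the filter through A-iSCs alone, so their direction was built in. Kcnk10 was at 0.473, 0.689 and 0.457 FPKM in P56-NPC, below every culture sample, a log2 difference of 1.86 ± 0.14 (SE, adjusted p = 3.52e-05). Kcnd3 was at 5.48, 5.53 and 5.53 FPKM there, a log2 difference of 0.60 ± 0.11 (SE, adjusted p = 0.00231), and Kcnj2 at 0.709, 0.629 and 0.825, a log2 difference of 0.41 ± 0.10 (SE, adjusted p = 0.0102). In ASTs their means were 6.26 ± 0.318, 7.90 ± 1.10 and 1.41 ± 0.116 FPKM (SD, n = 3), and none of the 3 was called between spheres and monolayer. The same 3 genes, with Kcna6, Kcnk13 and Kcnk6, were higher than in P0-NPC. There Kcnk13, Kcnk6 and Kcnj2 passed the filter through A-iSCs alone, so their direction was built in. Kcnk13 stood at 0.492, 0.408 and 0.618 FPKM in P0-NPC against 4.55 to 5.26 in spheres, a log2 difference of 1.98 ± 0.11 (SE, adjusted p = 4.18e-06), and Kcnk6 at 0.769, 0.761 and 0.735, a log2 difference of 0.98 ± 0.13 (SE, adjusted p = 0.00027). All 5 microglia and 4 of the 6 astrocyte markers were also higher in spheres than in P0-NPC, and their part in these values was not tested. The difference for Kcnd3 was small, a log2 difference of 0.31 ± 0.11 (SE, adjusted p = 0.0438), and the call was lost in 4 of the 6 fits with 1 sample left out, without A-iSC replicate 1 (adjusted p = 0.0779) and without P0-NPC replicates 1, 2 and 3 (0.126, 0.0814 and 0.124). It was lost as well when samples were scaled by library size (adjusted p = 0.0984) or by the upper quartile (0.412).

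Several of the widest deficits against P56-NPC were in genes at low levels in spheres. Kcna1, the Kv1.1 subunit of myelinated axons, was at 17.1, 15.6 and 15.6 FPKM in P56-NPC, a log2 difference of -3.93 ± 0.11 (SE, adjusted p = 4.13e-07). Kcnip2, a further Kv4 partner, was at 12.6, 12.7 and 11.2 FPKM there and 0.135, 0.137 and 0.152 in spheres, a log2 difference of -3.52 ± 0.09 (SE, adjusted p = 3.5e-07). Kcng4, a silent Kv subunit, was at 6.72, 6.63 and 6.25 FPKM in P56-NPC and on at most 3 fragments in a sphere sample, a log2 difference of -2.89 ± 0.09 (SE, adjusted p = 6.67e-07). Others were well measured in spheres, such as Kcnk1, which was at 4.53 to 5.53 FPKM against 46.0, 46.5 and 48.1, a log2 difference of -2.99 ± 0.10 (SE, adjusted p = 8.41e-07). Kcnab2, the beta subunit of axonal Kv1 channels, stood at 33.5, 41.4 and 28.6 FPKM in P56-NPC, a log2 difference of -3.59 ± 0.15 (SE, adjusted p = 2.26e-06). All 5 oligodendrocyte, 3 oligodendrocyte precursor, 6 neuron, 4 ependyma and 5 choroid plexus markers were lower in spheres than in P56-NPC as well, and their part in these values was not tested.

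Several members were also far lower in spheres than in P0-NPC. Kcnq3, a Kv7 subunit of the M-current, the slow potassium current that restrains repetitive firing in neurons, was at 7.28, 7.35 and 6.96 FPKM in P0-NPC and 0.111, 0.183 and 0.297 in spheres, a log2 difference of -2.78 ± 0.11 (SE, adjusted p = 8.43e-07). Every sphere sample lay far below every P0-NPC sample. Kcnip1 was at 3.56, 3.28 and 4.21 FPKM in P0-NPC, a log2 difference of -1.97 ± 0.12 (SE, adjusted p = 4.95e-06), and Kcnh3, a Kv12 subunit of forebrain neurons, at 2.70, 4.30 and 3.24, a log2 difference of -1.95 ± 0.15 (SE, adjusted p = 1.78e-05). The pore genes of ATP-sensitive channels were also low in spheres. Kcnj11, known as Kir6.2, was at 2.92, 3.06 and 3.53 FPKM in P0-NPC and 0.0945, 0.263 and 0.0913 in spheres, a log2 difference of -1.86 ± 0.12 (SE, adjusted p = 7.91e-06), and Kcnj8, known as Kir6.1, at 3.98, 3.90 and 2.94 FPKM in P0-NPC and 0.136, 0.264 and 0.498 in spheres, a log2 difference of -1.83 ± 0.15 (SE, adjusted p = 2.81e-05). All 6 neuron and 4 fibroblast markers were lower in spheres as well, as were 3 of the 4 endothelial markers, the pericyte markers Rgs5 and Pdgfrb and the 4 choroid plexus genes tested, while Acta2 was higher, and their part was not tested.

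Set against the monolayer astrocytes, both suspensions were richer in potassium channel message, P56-NPC with the high mitochondrial share given above. In P56-NPC, 41 of 53 tested members were higher and 9 lower than in ASTs, beside 39.1% and 39.8% of all tested genes. In P0-NPC, 39 of 52 were higher and 9 lower, beside 38.1% and 40.9%. Split by the filter, among members at 1 FPKM or more in both groups 6 were higher and 6 lower of 15 in P56-NPC, and 5 higher and 3 lower of 12 in P0-NPC, while all 35 and 34 that passed through the suspension alone were higher. These 2 comparisons share the AST samples, just as those of the spheres with each suspension share the A-iSC samples. Log2 differences are suspension minus AST. Higher in P56-NPC than in ASTs were also 5 of the 6 neuron markers and all markers of oligodendrocytes, their precursors, microglia, ependyma, astrocytes and choroid plexus. In P0-NPC all 6 neuron, 4 endothelial and 4 ependyma markers were higher, with 3 of the 4 fibroblast markers and the 4 choroid plexus genes tested. The part of these cell types in the values was not tested.

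**Figure D3:**
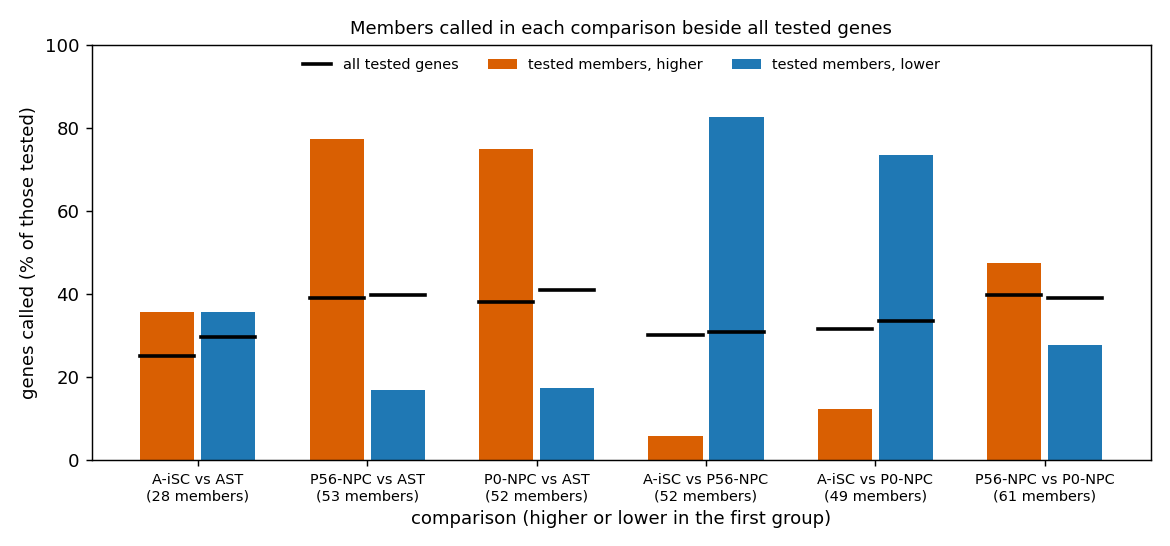
Share of tested members called higher (orange) or lower (blue) in the first group of each comparison, in percent of the members tested, with black lines for the share of all tested genes. In A-iSCs against ASTs the bars stand near the lines at 35.7% each, whereas in the comparisons of a culture with a suspension they part by direction, with 82.7% of tested members lower in A-iSCs than in P56-NPC.

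Among members higher in P56-NPC than in ASTs, Kcnj16 led with 4.80 ± 0.10 on the log2 scale (SE, adjusted p = 3.72e-08), followed by Kcnab2 with 4.27 ± 0.13 on the log2 scale (SE, adjusted p = 1.76e-07). Kcna1 followed with 4.03 ± 0.07 on the log2 scale (SE, adjusted p = 2.16e-08), from 2 to 7 fragments per AST sample. Kcnt1, the sodium-activated Slack channel, was at 6.84, 7.15 and 7.22 FPKM in P56-NPC and at most 0.0628 in ASTs, a log2 difference of 2.95 ± 0.07 (SE, adjusted p = 6.2e-08). Kcnk1 and Kcnk2, which were already well measured in ASTs, reached 46.9 ± 1.12 and 23.1 ± 1.07 FPKM in P56-NPC (SD, n = 3). Kcnf1, Kcne1l, Kcnk13, Kcnk10 and Kcnh5 were lower than in ASTs, of which Kcnk10 had the widest difference, a log2 difference of -2.24 ± 0.09 (SE, adjusted p = 5.38e-07). Kcnj4 was lower, a log2 difference of -0.54 ± 0.19 (SE, adjusted p = 0.0335), a call lost in 4 of the 6 fits with 1 sample left out, namely without AST replicate 1, 2 or 3 (adjusted p of 0.0603, 0.0624 and 0.0861) or without P56-NPC replicate 1 (0.0543). It was also lost with the upper quartile (0.0749).

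In P0-NPC, Kcnq3 was higher than in ASTs by 3.00 ± 0.08 on the log2 scale (SE, adjusted p = 4.76e-08). Kcnd2, the Kv4.2 subunit of dendritic A-type current, was at 5.36, 7.75 and 5.90 FPKM, a log2 difference of 2.43 ± 0.13 (SE, adjusted p = 1.35e-06). Kcne2 was at 21, 4.53 and 10.2 FPKM in P0-NPC and 7.30, 4.55 and 10.99 in P56-NPC, against at most 0.195 in ASTs. The P0-NPC values were far apart, with replicate 1 highest, and the difference of P0-NPC from ASTs was 3.32 ± 0.43 on the log2 scale (SE, adjusted p = 0.000165). Kcne2 is known from the epithelium of the choroid plexus, and 5 choroid plexus genes listed after the data had been seen (Ttr, Folr1, Kl, Otx2 and Aqp1) summed to 742 to 3818 FPKM in P0-NPC and 1477 to 3159 in P56-NPC, against at most 9.03 in the cultures. Their part in the Kcne2 values was not tested. Kcnk13 had the widest difference in the other direction, a log2 difference of -3.75 ± 0.10 (SE, adjusted p = 4.81e-08).

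The 2 suspensions also differed from each other, in a comparison that the study does not state. Of 61 tested members, 29 were higher in P56-NPC and 17 lower, beside 39.7% and 39% of all tested genes. Of the called members, 14 of the higher passed the filter through P56-NPC alone and 9 of the lower through P0-NPC alone, so that their direction was built in, while among the 35 at 1 FPKM or more in both groups 15 were higher and 8 lower. The split of all tested members rests on the scaling between samples, since it became 21 higher and 30 lower when samples were scaled by library size, and 26 and 24 with the upper quartile. Scaling by library size moved the median of all tested genes by over 0.1 in this comparison, to -0.53, so counts near the threshold follow that choice, while the 8 widest called differences in each direction kept their sign and call in both scalings.

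Higher in P56-NPC was Kcnj16, with a log2 difference (P56-NPC minus P0-NPC) of 3.89 ± 0.13 (SE, adjusted p = 2.03e-07). Kcnk13 was higher by 3.25 ± 0.09 on the log2 scale (SE, adjusted p = 7.75e-08). The Kv1 genes Kcna1 and Kcna6 were higher by 2.89 ± 0.09 on the log2 scale (SE, adjusted p = 1.73e-07) and 2.64 ± 0.08 on the log2 scale (SE, adjusted p = 1.24e-07). Kcnab2, which encodes a beta subunit of those Kv1 channels, was higher by 2.78 ± 0.13 on the log2 scale (SE, adjusted p = 8.36e-07). Kcnc4, a fast Kv3 channel, was at 7.01, 8.80 and 5.20 FPKM in P56-NPC and 0.501, 1.11 and 0.662 in P0-NPC, a log2 difference of 2.18 ± 0.19 (SE, adjusted p = 2.18e-05). Kcnmb1, the beta subunit of the large-conductance calcium-activated channel best known from smooth muscle, was at 3.60, 3.52 and 3.62 FPKM in P56-NPC and 0.125, 0.0738 and 0.104 in P0-NPC, a log2 difference of 2.06 ± 0.08 (SE, adjusted p = 3.79e-07). Among the markers of pericytes and smooth muscle, Acta2 was at 5.22, 3.92 and 14.1 FPKM in P56-NPC and 4.0, 1.77 and 3.34 in P0-NPC (not called), and Myh11, too low to be tested, at 0.0303, 0.0984 and 1.81 in P56-NPC and 0.173, 0.0723 and 0.234 in P0-NPC. Rgs5 and Pdgfrb were lower in P56-NPC, with 1.92 ± 0.555 and 5.42 ± 0.872 FPKM against 38.6 ± 3.83 and 12.2 ± 0.717 in P0-NPC (SD, n = 3), and the part of these cells in the Kcnmb1 values was not tested. The span of Kcnmb1 on chromosome 11 lies inside that of Kcnip1 on the other strand. The 5 oligodendrocyte, 5 microglia and 6 astrocyte markers were higher in P56-NPC too, as were the 3 of oligodendrocyte precursors and 3 of the 4 of ependyma, and their part in the values of the Kv1 genes and Kcnk13 was not tested.

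Lower in P56-NPC was Kcnj8 (0.113, 0.367 and 0.357 against 3.98, 3.90 and 2.94 FPKM), a log2 difference of -1.85 ± 0.13 (SE, adjusted p = 7.88e-06). Its partner Abcc9, the sulfonylurea receptor that joins Kir6.1 in vessels, was lower as well, at 0.0926 ± 0.0288 against 3.96 ± 0.684 FPKM, a log2 difference of -2.17 ± 0.12 (SE, adjusted p = 1.99e-06). All 4 endothelial markers were lower in P56-NPC, summing to 2.57 to 3.15 FPKM against 66.8 to 67.4 in P0-NPC. The 4 fibroblast markers and, of the pericyte markers, Rgs5 and Pdgfrb were lower too, and the part of these cell types in the values was not tested. Kcnq3 was lower, a log2 difference of -0.93 ± 0.08 (SE, adjusted p = 1.58e-05). Kcnb2 and Kcnh7, a Kv2 and a Kv11 pore gene, reached a mean of 1 FPKM in P0-NPC only. Kcnb2 was at 1.31, 1.21 and 1.44 FPKM there, and Kcnh7 at 1.64, 1.83 and 1.79. Of the 6 neuron markers 4 were lower in P56-NPC and 1 higher, as were 4 and 1 of the 5 progenitor genes, and their part in the values of Kcnq3, Kcnb2 and Kcnh7 was not tested. Kcna3, a Kv1 gene known from T cells and microglia, was at 2.41, 3.40 and 1.87 FPKM in P0-NPC and 0.575, 1.02 and 0.415 in P56-NPC, a log2 difference of -1.09 ± 0.19 (SE, adjusted p = 0.00105), thus opposite to Kcna1, Kcna2 and Kcna6.

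The makeup of the message by class follows from these genes. Kv1 genes summed to 1.87 to 2.47 FPKM in ASTs, 16.9 to 23.6 in A-iSCs, 38.9 to 40.7 in P56-NPC and 7.004 to 9.99 in P0-NPC, which was 1.80% of the group's summed message in ASTs and 19.1% in A-iSCs. Kcna6 carried most of the class in spheres, while in P56-NPC Kcna1, Kcna6 and Kcna2 shared it. The K2P class took 36.2% of the message in ASTs and 24.5% in A-iSCs. Its sum was 44.0 to 47.0 FPKM in ASTs and 25.4 to 27.8 in A-iSCs, without overlap. Silent Kv genes summed to 10.5 to 11.67 FPKM in ASTs and 2.58 to 3.45 in A-iSCs, nearly all of it Kcnf1 in ASTs, whereas in P56-NPC Kcng4 led the class. The Kv7 class was highest in P0-NPC, with 21.9 to 25.5 FPKM or 10.96% of the message. Auxiliary genes took 25.4% to 31.9% of the message in each group, led by Kcne1l in ASTs and P0-NPC and by Kcnip3 in A-iSCs and P56-NPC. No test was made on these sums.

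**Figure D4:**
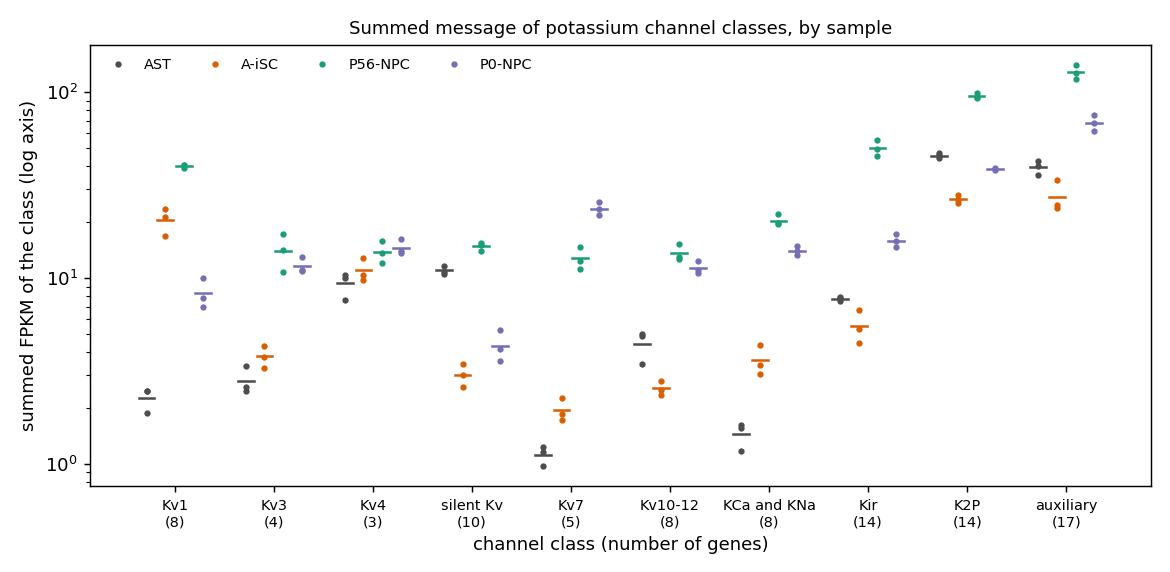
Summed FPKM (log axis) of 10 channel classes (x axis, with its number of genes) in every sample; points are samples, short lines are group means. The Kv1 class is higher in A-iSCs (16.9 to 23.6) than in ASTs (1.87 to 2.47), while the silent Kv and K2P classes are lower in A-iSCs than in ASTs.

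Proteins that work with potassium channels were followed through 29 partner genes: sodium pump subunits, cation-chloride cotransporters, Hcn channels and proteins that bind channels. In A-iSCs against ASTs, 16 could be tested, of which 6 were higher and 4 lower (37.5% and 25%, beside 25.2% and 29.6% of all tested genes). Among the 12 at 1 FPKM or more in both groups, 4 were higher and 3 lower. Of the called ones, 2 of the higher passed the filter through A-iSCs alone and 1 of the lower through ASTs alone, so their direction was built in. Atp1b2, a beta subunit of the sodium pump, which restores the potassium gradient, rose from 13.1, 12.1 and 14.0 to 158, 181 and 197 FPKM, a log2 difference of 3.67 ± 0.13 (SE, adjusted p = 3.65e-06). Amigo1, a membrane protein that binds Kv2 channels, rose from 1.91, 1.78 and 2.11 to 6.86, 6.27 and 6.96 FPKM, a log2 difference of 1.39 ± 0.10 (SE, adjusted p = 4.22e-05). Slc12a4, a potassium-chloride cotransporter, fell, a log2 difference of -1.04 ± 0.11 (SE, adjusted p = 0.000225).

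In the suspensions more of the partner genes could be tested. Against ASTs, 16 of 21 were higher and 4 lower in P56-NPC (beside 39.1% and 39.8% of all tested genes), and 20 of 25 were higher and 5 lower in P0-NPC (beside 38.1% and 40.9%). Of these, 8 and 12 passed the filter through the suspension alone and had to differ that way, while among those at 1 FPKM or more in both groups 8 of 12 were higher and 3 lower in P56-NPC, and 8 of 13 higher and 5 lower in P0-NPC. In A-iSCs, 3 of 21 were higher and 14 lower than in P56-NPC (beside 30.1% and 30.9%), and 7 of 25 higher and 15 lower than in P0-NPC (beside 31.5% and 33.6%), with 6 and 10 of the lower ones having passed through the suspension alone. Among partner genes at 1 FPKM or more in both groups, 2 of 14 were higher and 8 lower than in P56-NPC, whereas 7 of 15 were higher and 5 lower than in P0-NPC. Dpp6, an accessory subunit that speeds Kv4 channels, was at 0.164, 0.168 and 0.174 FPKM in ASTs, 0.498, 0.572 and 0.770 in A-iSCs, 5.06, 5.99 and 4.62 in P56-NPC and 4.57, 5.28 and 4.84 in P0-NPC. The spheres were below both suspensions in every sample, and their difference from P56-NPC was -1.95 ± 0.12 on the log2 scale (SE, adjusted p = 1.41e-05). Cntn2, a protein that gathers Kv1 channels beside the nodes of myelinated axons and is also made by developing neurons, was at 0.10 ± 0.0272 FPKM in A-iSCs, 43.9 ± 0.846 in P56-NPC and 92.1 ± 10.2 in P0-NPC (SD, n = 3).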

How the data were processed

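Total RNA of 12 mouse samples in 4 groups of 3 was sequenced by the authors as paired-end libraries from a NEBNext Ultra kit on an Illumina HiSeq platform. The authors deposited 1 table of 55862 genes with a value per sample, gene length and position. No source used here names the unit; the values were read as FPKM because values up to 100000 fragments, multiplied by gene length, were whole multiples of 1 step per sample (within 0.1 of a fragment; larger values were not checked), which also gave the fragments and a scaling between samples already in the deposited FPKM. The submitters' processing notes name Bowtie 0.12.2 and mm8, whereas 54985 of the 55240 identifiers also found in GENCODE M21 had an identical position on GRCm38, which is used here; 91 of 93 members did. Whether counting used strand is not given in the sources used here, so reads of overlapping opposite genes cannot be told apart. Samples were grouped by their descriptions.

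For each of 6 comparisons, limma 3.58.1 (R 4.3.3; lmFit, eBayes with trend, two-sided) was run on log2(FPKM + 1) in the 6 samples concerned, over all genes with a mean of at least 1 FPKM in at least 1 group, with Benjamini-Hochberg adjustment over all of them and a threshold of 0.05. An exact permutation test of 3 against 3 cannot go below 0.1 and was not used. The paper names a count test; the table holds FPKM, so limma took its place. On simulated data of 12692 genes for A-iSC against AST, 187 of 200 changed genes were recovered with 0 wrong signs, and 24 unchanged genes were called (11.4% of calls, above the threshold of 0.05). The simulation set the spread between samples alike for all genes and changed only 200, whereas in the data 54.8% of tested genes were called. It therefore does not give the error of the calls reported here. Alternatives were a pseudocount of 0.1, no filter, 2 other scalings, all 4 groups in the model, a replicate block, limma-voom on the recovered fragments, a log2 difference beyond 1, and leaving out each sample. The members, classes and lists were chosen with earlier results of these data known; the progenitor and choroid plexus lists were added after seeing the values. Named members were the 8 highest and 8 lowest called members with non-overlapping groups per comparison, the 6 highest in each group and the highest of each class; other members of classes of 10 or fewer, or genes singled out otherwise, are named in addition. Floors of detection cover counting error only, whereas SD and SE come from the spread between samples. Start windows were taken from RefSeq (GRCm38.p6). Protein sequences were not used here. Some genes are not reported here by name or drawn, although counts and sums over members include them.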

Additional observations from a re-analysis of the deposited data

How the results depend on the processing

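Counts of called members kept within 1.5 times of their value under a pseudocount of 0.1, all 4 groups in the model, limma-voom on fragments, upper-quartile scaling, the replicate block and every fit with 1 sample left out. Without the filter, more low members entered, giving 24 higher in A-iSC vs AST, 62 higher in P56-NPC vs AST, and 59 higher and 14 lower in P0-NPC vs AST (of all genes 14.2%, 26.2%, 26.3% and 21.1%). With a log2 difference beyond 1 required, there were 5 higher and 6 lower in A-iSC vs AST, 3 lower in P56-NPC vs AST, 5 lower in P0-NPC vs AST, 1 higher in A-iSC vs P56-NPC, 2 higher in A-iSC vs P0-NPC, and 18 higher and 7 lower in P56-NPC vs P0-NPC, fewer by construction. Scaling by library size gave 5 higher in A-iSC vs P56-NPC and 30 lower in P56-NPC vs P0-NPC. It moved the median of all tested genes to 0.49 in A-iSC vs P56-NPC, -0.34 in P56-NPC vs AST, 0.21 in P0-NPC vs AST and 0.13 in A-iSC vs AST, and the upper quartile to 0.33 in P0-NPC vs AST, 0.12 in P56-NPC vs AST and in A-iSC vs AST, and -0.22 in A-iSC vs P0-NPC and P56-NPC vs P0-NPC. The summed FPKM of all members became 310.7 in P56-NPC and 255 in P0-NPC under library size, and 109 in AST and 251.6 in P0-NPC under the upper quartile. The uncalled A-iSC to AST differences of Kcnd1 (to 0.0116 by library size) and Kcnj2 (to 0.0476 by library size and 0.0387 by the upper quartile) changed sign. Of 93 called values of named members, 69 stayed called in every alternative and 24 were lost in at least 1, most of them only where a log2 difference beyond 1 was required. Same-numbered samples deviated together in A-iSC vs AST for numbers 2 and 3 (0.35 and 0.45) and not for number 1 (-0.41). With 3 samples per group these values are tied to each other, so they cannot show whether the numbers pair the samples. With the replicate block the counts were 10 higher and 10 lower in A-iSC vs AST, 41 and 8 in P56-NPC vs AST, 39 and 9 in P0-NPC vs AST, 3 and 42 in A-iSC vs P56-NPC, 5 and 36 in A-iSC vs P0-NPC, and 30 and 16 in P56-NPC vs P0-NPC. Depth limits values under the floor of 3 fragments, 0.103 to 0.187 FPKM in a gene of 1 kb.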
